A study of Mus musculus with 12 samples.

Results

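Transcripts of cholesterol synthesis, uptake and export were followed in splenic B cells of transgenic and wild type mice, before and after activation. The set holds 33 gene symbols listed for the pathway, of which Sc4mol is an older name of Msmo1, so 32 distinct genes. All probe sets annotated to these symbols were taken: 62 probe sets of 29 genes, out of 45037 probe sets and 18193 genes measured. Acat2, Soat1 and Nr1h2 have no annotated probe set here and were not analysed here. Of the 29 genes, 11 have 1 probe set and 18 have several.

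Each sample gave 4 µg of total RNA, which was hybridised to 1 Affymetrix array of the mouse transcriptome. The 4 groups were transgenic cells with EFLmDREAM after 2 days with lipopolysaccharide (LPS, 20 µg/ml) and interleukin 4 (IL-4, 10 ng/ml), wild type cells stimulated in the same way, unstimulated (day 0) transgenic cells and unstimulated wild type cells, with 3 arrays each, described as independent biological replicates. Every group was isolated from spleen by removing CD43-positive cells, to a stated purity above 98%. DREAM is a calcium-binding transcriptional repressor encoded by Kcnip3. The promoter of the transgene, the cells that express it, and the strain, age and number of mice behind an array are stated in no source used here.

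Cells make cholesterol from acetyl-CoA. The mevalonate arm of the pathway builds isoprenoid units up to farnesyl diphosphate, and the sterol arm joins these into squalene, closes the rings to lanosterol and trims it to cholesterol. When membrane sterol is low, SCAP carries the transcription factors SREBP1 and SREBP2 out of the endoplasmic reticulum, they are cleaved, and they switch on the genes of both arms; INSIG proteins hold SCAP back when sterol is plentiful. When sterol is high, oxysterols activate the LXR receptors, which raise the exporters ABCA1 and ABCG1 and the ubiquitin ligase MYLIP, which marks lipoprotein receptors for breakdown. Activated B cells grow and divide, and dividing cells need sterol for new membrane.

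Values are log2 probe set levels, on which a step of 1 is a doubling. As deposited, the array medians lay between 5.36 and 5.41 in the 6 stimulated arrays and between 5.97 and 6.05 in the 6 unstimulated arrays, so comparisons between states use levels after quantile normalization of the 12 arrays, and comparisons between genotypes use the deposited levels. The median change of all probe sets under stimulation was 0.040 in transgenic and 0.037 in wild type cells on that scale, −0.40 in both on the deposited levels, and 0.24 and 0.22 with array medians subtracted. Changes are differences ± SE from limma, n = 3 arrays per group, with p-values adjusted by Benjamini and Hochberg over all 45037 probe sets, and an adjusted p under 0.05 passed. A gene with several probe sets is represented by its brightest one unless stated otherwise. All 8 measured B cell markers, Ms4a1, Cd79a and Cd79b among them, lay above the array median in all 4 groups. The array of wild type unstimulated replicate 1 differed from the rest in a sign of RNA quality: its actin probe sets differed by −2.22 (5′ minus 3′ end), against −0.67 to −0.54 in the other 5 unstimulated arrays. Wild type stimulated replicate 1 read −1.36, against −0.98 to −0.43 in the other 5 stimulated arrays. Kcnip3 did not pass between the genotypes (0.03 ± 0.12 and adjusted p = 0.976 stimulated, 0.23 ± 0.12 and adjusted p = 0.279 unstimulated); no source used here says whether its probe sets read the transgene.

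Stimulation with LPS and IL-4 was compared with the unstimulated state in each genotype. At their brightest probe sets the enzymes of cholesterol synthesis in the set rose in both genotypes, all 17 of 17, by 1.47-fold to 14.9-fold in transgenic cells and by 1.49-fold to 15.6-fold in wild type cells, and all 17 also rose on the deposited values and with array medians subtracted. The exporters Abca1 and Abcg1 and the ligase gene Mylip fell in both. Abca1, which loads cellular cholesterol onto apolipoproteins, fell at its brightest probe set, with log2 changes of −5.08 in transgenic and −5.83 in wild type cells. Its stimulated levels lay near or below the array medians, so these sizes are not exact. The regulators Srebf1 and Srebf2, which encode the SREBPs, changed by at most 1.24-fold in either genotype at their brightest probe sets after quantile normalization, and by 0.41 to 0.93 on the log2 scale with array medians subtracted.

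Of the 29 genes, 23 were higher and 4 lower after stimulation of transgenic cells, against 35.2% and 23.3% of all 18193 genes. In wild type cells 22 were higher and 4 lower, against 36.0% and 24.0% of all genes. Changes of at least 2-fold, which fewer genes show, were found as rises in 17 of the 29 in transgenic cells (9.37% of all genes) and in 14 of the 29 in wild type cells (9.95% of all genes), and as falls in 3 in each genotype (7.29% and 7.36% of all genes). The median change of the 29 genes was 1.38 in transgenic and 0.95 in wild type cells, where all genes had medians of 0.083 and 0.080. Over probe sets, 43 of 62 were higher and 9 lower in each genotype, against 30.1% and 25.1% of all probe sets in transgenic and 30.7% and 26.1% in wild type cells. On the deposited values 41 were higher and 16 lower in transgenic cells, where 13.7% and 64.9% of all probe sets were, and 35 were higher and 16 lower in wild type cells, where 14.1% and 64.8% were. The sign of the change depended on the scaling for 11 of the 62 probe sets in transgenic and 13 in wild type cells. Without wild type unstimulated replicate 1 the wild type counts were 44 and 9.

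**Figure D1:**
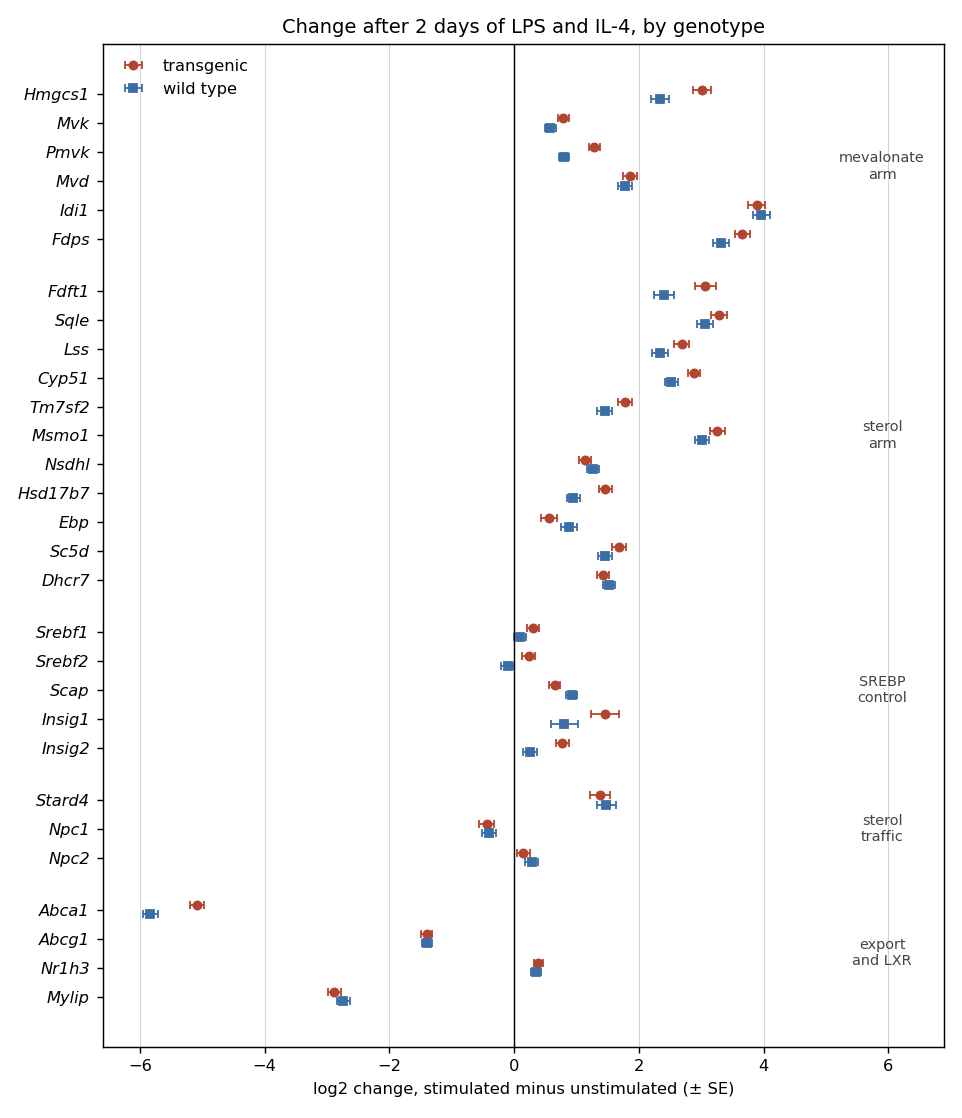
Log2 change after 2 days of LPS and IL-4 for each of the 29 genes at its brightest probe set, with SE, in transgenic (circles) and wild type cells (squares), grouped by role from synthesis at the top to export at the bottom. All 17 synthesis genes lie right of 0 in both genotypes, and Abca1, Abcg1 and Mylip lie left of 0.

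The mevalonate arm was led by Idi1, the isomerase that interconverts the isoprenoid building blocks of the pathway. Idi1 read 11.23, 11.30 and 11.16 in stimulated and 7.67, 7.17 and 7.17 in unstimulated transgenic cells, a change of 3.89 ± 0.13 (adjusted p = 1.16e-10). Idi1 in wild type cells read 11.24, 11.14 and 11.14 stimulated and 7.45, 7.13 and 7.04 unstimulated (3.97 ± 0.13, adjusted p = 8.04e-11). The states do not overlap in either genotype, which follows from naming Idi1 for its large change. The other probe set of Idi1 rose too, by 5.62 ± 0.17 in transgenic and 5.23 ± 0.17 in wild type cells, against unstimulated means of 4.77 and 5.02 that lie below the array medians and so set no exact fold.

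Fdps makes farnesyl diphosphate, where the branches to sterols, ubiquinone, dolichol and protein prenylation part. Fdps read 10.73, 10.46 and 10.91 in stimulated and 7.08, 7.0 and 7.03 in unstimulated transgenic cells (3.66 ± 0.13, adjusted p = 1.09e-10). Fdps in wild type cells read 10.25, 10.04 and 10.30 stimulated and 6.64, 7.0 and 7.0 unstimulated (3.32 ± 0.13, adjusted p = 2.02e-10). The dim Fdps probe set, with group means of 3.59 to 3.86, had changes of 0.11 ± 0.089 in transgenic (adjusted p = 0.314) and 0.28 ± 0.089 in wild type cells (adjusted p = 0.0174). Its sign depended on the scaling, with −0.21 and −0.057 on the deposited values, and 0.43 and 0.56 with array medians subtracted.

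Hmgcs1 encodes a cytosolic synthase of the mevalonate arm. Its brightest probe set read 12.12, 11.89 and 11.59 in stimulated and 9.01, 8.69 and 8.86 in unstimulated transgenic cells (3.01 ± 0.14, adjusted p = 1.89e-09). Hmgcs1 in wild type cells read 11.52, 11.23 and 11.36 stimulated and 9.21, 9.09 and 8.79 unstimulated (2.34 ± 0.14, adjusted p = 1.71e-08). All 5 of its probe sets rose in both genotypes, by 1.39 to 3.01 in transgenic and 0.84 to 2.36 in wild type cells. The kinases and the decarboxylase between mevalonate and the isoprenoid units moved less. Mvd rose by 1.86 ± 0.11 in transgenic and 1.78 ± 0.11 in wild type cells, Pmvk by 1.29 ± 0.080 and 0.80 ± 0.080, and Mvk by 0.79 ± 0.087 and 0.58 ± 0.087. On the deposited values Mvk rose by 0.37 (adjusted p = 0.00113) and 0.19 (adjusted p = 0.0496). Its other probe set, 1430619_a_at, had changes of 0.22 (adjusted p = 0.0608) and 0.07 (adjusted p = 0.529) and did not pass. That one passed as lower on the deposited values (−0.24, adjusted p = 0.0202 and −0.39, adjusted p = 0.0011). With array medians subtracted it passed as higher (0.40, adjusted p = 0.00127 and 0.23, adjusted p = 0.034).

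In the sterol arm all 11 measured enzymes rose in both genotypes. Sqle, squalene epoxidase, performs the oxygen-dependent step that precedes ring closure. Sqle read 10.15, 10.11 and 9.90 in stimulated and 6.99, 6.56 and 6.77 in unstimulated transgenic cells (3.28 ± 0.13, adjusted p = 3.83e-10). Sqle in wild type cells read 9.91, 9.90 and 10.02 stimulated and 7.15, 6.83 and 6.67 unstimulated (3.06 ± 0.13, adjusted p = 5.86e-10). Msmo1, the methylsterol oxidase, moved by nearly as much.

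Msmo1 read 10.46, 10.35 and 10.13 in stimulated and 7.14, 7.06 and 6.96 in unstimulated transgenic cells (3.26 ± 0.12, adjusted p = 1.7e-10). Msmo1 in wild type cells read 10.09, 9.89 and 9.94 stimulated and 7.14, 7.04 and 6.71 unstimulated (3.01 ± 0.12, adjusted p = 2.72e-10). Cyp51 encodes lanosterol demethylase. It read 9.61, 9.62 and 9.43 in stimulated and 6.84, 6.57 and 6.59 in unstimulated transgenic cells (2.89 ± 0.10, adjusted p = 1.31e-10). Cyp51 in wild type cells read 9.41, 9.17 and 9.24 stimulated and 6.84, 6.80 and 6.61 unstimulated (2.52 ± 0.10, adjusted p = 3.32e-10). All 3 Cyp51 probe sets rose in both genotypes.

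Fdft1, squalene synthase, diverts farnesyl diphosphate into sterols. Its brightest probe set read 10.02, 9.80 and 9.54 in stimulated and 6.79, 6.76 and 6.62 in unstimulated transgenic cells (3.07 ± 0.17, adjusted p = 6.3e-09). Fdft1 in wild type cells read 9.60, 9.31 and 9.28 stimulated and 7.41, 6.82 and 6.74 unstimulated (2.40 ± 0.17, adjusted p = 5.52e-08). The Fdft1 probe sets did not move alike: 1448130_at rose by 2.41 ± 0.074 in transgenic and 2.20 ± 0.074 in wild type cells, and 1438919_x_at did not pass (0.27 ± 0.14, adjusted p = 0.124 and 0.28 ± 0.14, adjusted p = 0.109) and on the deposited values turned to −0.35 (adjusted p = 0.0369) and −0.31 (adjusted p = 0.0593). The remaining one, 1438918_at, had changes of 0.083 ± 0.072 in transgenic (adjusted p = 0.356) and 0.47 ± 0.072 in wild type cells (adjusted p = 9.6e-05), and on the deposited values it turned to −0.54 (adjusted p = 3.04e-05) and −0.12 (adjusted p = 0.151).

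Lss, lanosterol synthase, closes the sterol rings. Lss read 9.23, 9.25 and 8.98 in stimulated and 6.41, 6.43 and 6.57 in unstimulated transgenic cells (2.69 ± 0.13, adjusted p = 1.62e-09). Lss in wild type cells read 8.88, 8.72 and 8.96 stimulated and 6.81, 6.28 and 6.45 unstimulated (2.34 ± 0.13, adjusted p = 5.06e-09). For none of these 8 leading enzymes did the stimulated and unstimulated arrays of a genotype overlap. They were picked for their large changes, so this adds no support. The other 6 sterol arm enzymes, which reduce, oxidise or isomerise the sterol skeleton (Tm7sf2, Nsdhl, Hsd17b7, Ebp, Sc5d and Dhcr7), rose by 0.56 to 1.78 in transgenic and by 0.88 to 1.52 in wild type cells. The smallest rise among them was that of Ebp in transgenic cells (0.56 ± 0.13, adjusted p = 0.00243), and the largest that of Tm7sf2 in the same cells (1.78 ± 0.12).

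**Figure D2:**
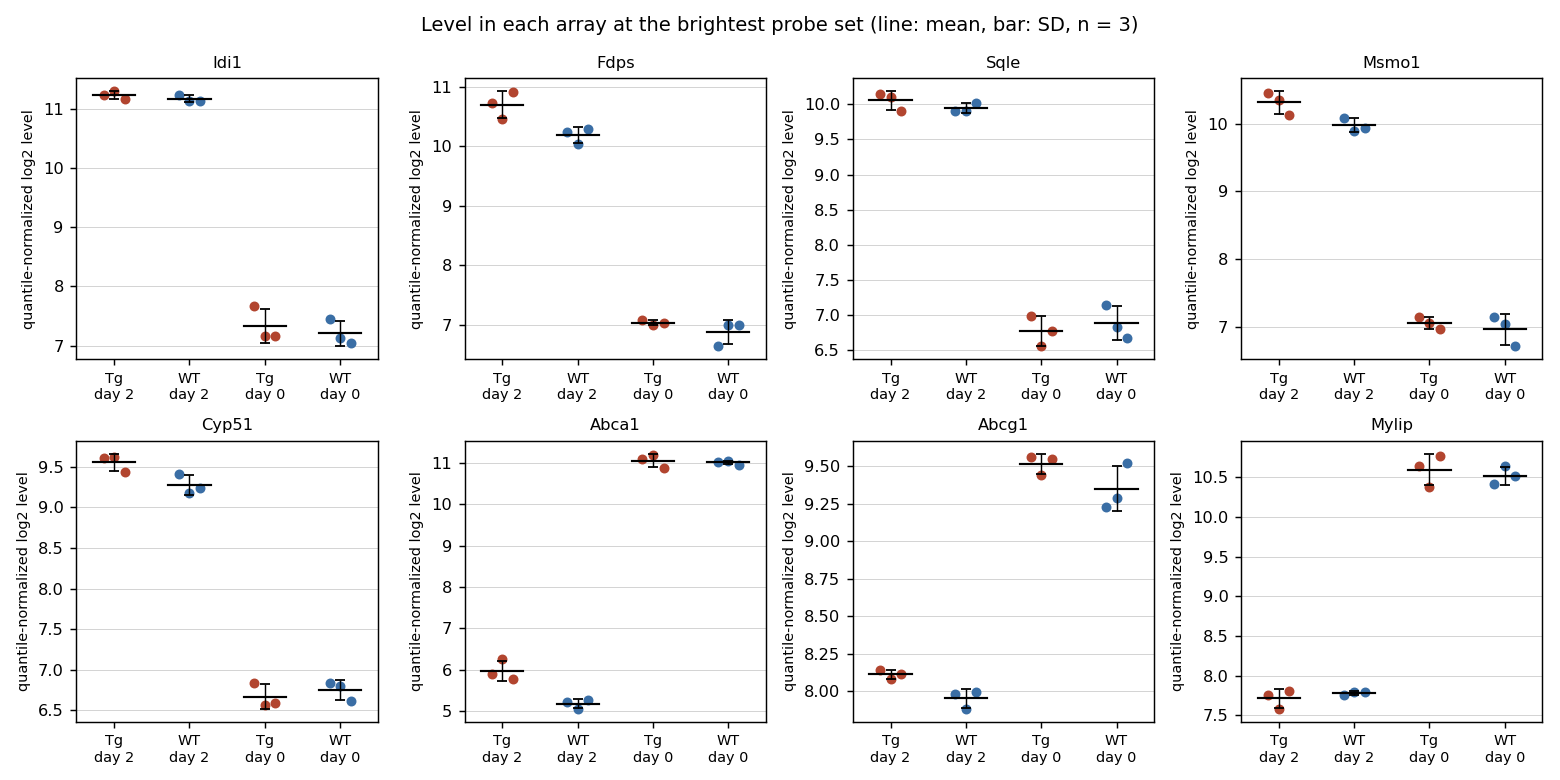
Quantile-normalized log2 level in each array for 5 synthesis genes (Idi1, Fdps, Sqle, Msmo1, Cyp51) and for Abca1, Abcg1 and Mylip, in stimulated (day 2) and unstimulated (day 0) transgenic (Tg) and wild type (WT) cells; points are arrays, lines means and bars SD (n = 3). The vertical axis does not start at 0 and differs between panels. In each panel the 6 stimulated arrays lie apart from the 6 unstimulated arrays, above for the synthesis genes and below for the other 3.

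Promoter windows of these genes are shown because the synthesis genes moved together and in the direction opposite to Abca1. RefSeq windows (build GRCm38.p6, 250 bases before to 50 after a transcript start) were found for 23 of the 29 genes, 32 windows in all, with none for Fdps, Fdft1, Sqle, Abcg1, Stard4 and Npc1. They were searched on both strands for a sterol regulatory element (TCACNCCAC), for the CCAAT box and for the E-box CACGTG, and no match of 1 motif overlapped a match of another. Printed are Idi1, Msmo1, Cyp51 and Hmgcs1, which had the largest rises in wild type cells among genes with a window, and Abca1. Letters of a match stand in capitals; a CCAAT box on the other strand reads ATTGG.
Idi1 (chr13:8885356-8885655, plus strand): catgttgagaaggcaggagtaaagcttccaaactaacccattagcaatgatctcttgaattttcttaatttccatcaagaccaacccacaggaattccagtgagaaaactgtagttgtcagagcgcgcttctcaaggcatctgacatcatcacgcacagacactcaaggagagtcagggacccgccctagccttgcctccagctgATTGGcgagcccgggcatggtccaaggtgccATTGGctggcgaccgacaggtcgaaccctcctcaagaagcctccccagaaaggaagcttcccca
Msmo1 (chr8:64733529-64733828, minus strand): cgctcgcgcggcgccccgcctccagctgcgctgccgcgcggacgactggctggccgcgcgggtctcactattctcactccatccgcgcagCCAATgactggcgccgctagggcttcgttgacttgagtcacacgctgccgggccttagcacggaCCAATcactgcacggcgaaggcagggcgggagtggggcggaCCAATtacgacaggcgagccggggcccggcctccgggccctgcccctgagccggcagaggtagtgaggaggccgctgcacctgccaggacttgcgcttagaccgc
Cyp51 (chr5:4104648-4104947, minus strand): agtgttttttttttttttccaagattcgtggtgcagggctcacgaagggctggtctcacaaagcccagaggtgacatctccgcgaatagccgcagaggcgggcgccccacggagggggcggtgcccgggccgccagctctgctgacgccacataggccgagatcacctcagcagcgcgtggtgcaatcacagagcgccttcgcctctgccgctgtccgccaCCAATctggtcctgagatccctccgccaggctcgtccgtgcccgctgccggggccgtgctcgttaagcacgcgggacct
Hmgcs1 (chr13:119690101-119690400, plus strand): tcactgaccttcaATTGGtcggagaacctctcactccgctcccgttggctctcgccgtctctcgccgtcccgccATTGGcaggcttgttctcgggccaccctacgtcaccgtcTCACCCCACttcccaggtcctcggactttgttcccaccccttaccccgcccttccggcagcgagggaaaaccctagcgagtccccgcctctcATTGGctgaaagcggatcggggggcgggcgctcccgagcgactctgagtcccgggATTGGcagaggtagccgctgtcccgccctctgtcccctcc
Abca1 (chr4:53159846-53160145, minus strand): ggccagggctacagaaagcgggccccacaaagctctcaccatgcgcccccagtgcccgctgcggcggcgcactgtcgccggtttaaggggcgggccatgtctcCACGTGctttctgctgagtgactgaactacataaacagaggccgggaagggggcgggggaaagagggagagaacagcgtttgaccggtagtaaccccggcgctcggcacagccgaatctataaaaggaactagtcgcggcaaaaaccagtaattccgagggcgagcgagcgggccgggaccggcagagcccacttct

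The Hmgcs1 window holds the sterol regulatory element, as TCACCCCAC, starting 137 bases before the transcript start, together with 4 CCAAT boxes. It was the only member window with this element, 1 of 32, against 1.24% of all 32851 windows in the table. A CCAAT box, the site of the factor NF-Y that works beside SREBP, stood in a window of 20 of the 23 genes and of all 14 synthesis genes with a window, against 41.1% of all 27025 genes. Idi1 has 2, starting 45 and 14 bases before the start, Msmo1 has 3, starting 160, 96 and 55 bases before it, and Cyp51 has 1, 29 bases before it. The Abca1 window held no CCAAT box and 1 E-box, 147 bases before the start. An E-box stood in a window of 6 of the 23 genes, against 8.09% of all genes. A match is a description of letters and no evidence of binding, and a window without one says nothing about the factor.

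Genes of the SREBP system itself had smaller changes than the 8 leading enzymes, which were picked for their large changes. Against all 17 synthesis genes the ranges overlapped. Insig1 in transgenic cells (1.45) exceeded Dhcr7 (1.43) and Ebp (0.56), and Scap in wild type cells (0.92) exceeded Ebp (0.88) and Mvk (0.58). Srebf1 and Srebf2 lay below all 17 in both genotypes at their brightest probe sets. Insig1, which retains SCAP and is itself an SREBP target, rose by 1.45 ± 0.22 in transgenic (adjusted p = 9.8e-05) and 0.81 ± 0.22 in wild type cells (adjusted p = 0.00744). Its stimulated arrays spread widely in transgenic cells (7.52, 8.0 and 8.64, SD 0.56) and little in wild type cells (7.88, 7.94 and 7.82, SD 0.059). On the deposited values the wild type change of Insig1 was 0.39 and did not pass (adjusted p = 0.144). Insig2, the second retention protein, rose by 0.78 ± 0.11 in transgenic cells (adjusted p = 5.49e-05) and changed by 0.25 ± 0.11 without passing in wild type cells (adjusted p = 0.0683, and 0.034 with the replicate number as a block). That wild type change was −0.13 on the deposited values (adjusted p = 0.294) and 0.48 with array medians subtracted (adjusted p = 0.00343). Scap, the escort protein, rose by 0.65 ± 0.088 in transgenic and 0.92 ± 0.088 in wild type cells. The 5 regulators had 4 higher in transgenic and 2 higher in wild type cells, against 35.2% and 36.0% of all genes, and 0 lower, so the wild type share is near that of all genes. With array medians subtracted all 5 were higher in both genotypes, and on the deposited values 4 in transgenic and 1 in wild type cells.

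The change of Srebf1 was 0.31 ± 0.097 in transgenic cells (adjusted p = 0.0157) and 0.092 ± 0.097 in wild type cells (adjusted p = 0.441). The transgenic call of Srebf1 was lost without transgenic unstimulated replicate 2 (0.25, adjusted p = 0.0709) or transgenic stimulated replicate 2 (0.28, adjusted p = 0.0545). With array medians subtracted it was 0.93 in transgenic (adjusted p = 5.08e-06) and 0.66 in wild type cells (adjusted p = 0.000109). The 2 Srebf2 probe sets differed: 1426744_at rose by 0.66 ± 0.13 and 0.70 ± 0.13, while the slightly brighter 1452174_at had changes of 0.24 ± 0.10 in transgenic and −0.10 ± 0.10 in wild type cells and passed in neither (adjusted p = 0.0722 and 0.42). With array medians subtracted instead of quantile normalization, the changes of 1452174_at were 0.76 and 0.41 and passed in both (adjusted p = 1.58e-05 and 0.00248). None of these values measures the cleaved, active form of the proteins.

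Sterol carriers went different ways. Stard4, a soluble carrier that moves cholesterol between membranes, rose at all 3 of its probe sets, at the brightest by 1.38 ± 0.16 in transgenic (adjusted p = 6.31e-06) and 1.48 ± 0.16 in wild type cells (adjusted p = 3e-06). Npc1, the lysosomal membrane protein that hands over cholesterol taken up in lipoproteins, was lower after stimulation. Npc1 read 5.72, 5.43 and 5.64 in stimulated and 5.99, 6.13 and 6.0 in unstimulated transgenic cells (−0.44 ± 0.11, adjusted p = 0.00529). Npc1 in wild type cells read 5.94, 6.14 and 5.96 stimulated and 6.45, 6.61 and 6.17 unstimulated (−0.40 ± 0.11, adjusted p = 0.00979). Its arrays of the 2 states do not overlap in either genotype, which adds no support to calls already made. Its stimulated levels lay near the array medians. The size depended on the scaling, with −1.07 in transgenic and −1.0 in wild type cells on the deposited values. With array medians subtracted it was −0.43 and −0.38. On each scale the fall was smaller than those of the exporters at their brightest probe sets.

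Npc2, the soluble lysosomal partner of Npc1, had probe sets that disagreed. The bright ones, 1448513_a_at and 1416901_at, had changes of 0.15 ± 0.11 and 0.056 ± 0.068 in transgenic cells (adjusted p = 0.26 and 0.514) and 0.28 ± 0.11 and 0.41 ± 0.068 in wild type cells (adjusted p = 0.0372 and 0.000164). The dim ones, 1455768_at and 1443266_at, fell, with −0.88 ± 0.12 and −0.45 ± 0.098 in transgenic and −0.73 ± 0.12 and −0.48 ± 0.098 in wild type cells. The wild type rise at 1448513_a_at lost its call when any of 4 single arrays was left out (wild type unstimulated replicates 2 and 3, wild type stimulated replicates 1 and 2; adjusted p of 0.0743 to 0.141) and when only these 6 arrays were fitted (adjusted p = 0.068). In transgenic cells both bright probe sets passed as higher on the deposited values (0.45, adjusted p = 0.00176 and 0.31, adjusted p = 0.00152) and with array medians subtracted (1.09, adjusted p = 1.46e-06 and 0.95, adjusted p = 1.74e-07).

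The exporters and Mylip fell after stimulation in both genotypes. Abca1 read 5.89, 6.25 and 5.78 in stimulated and 11.10, 11.20 and 10.88 in unstimulated transgenic cells (−5.08 ± 0.12, adjusted p = 5.49e-12). Abca1 in wild type cells read 5.23, 5.05 and 5.26 stimulated and 11.03, 11.04 and 10.96 unstimulated (−5.83 ± 0.12, adjusted p = 1.45e-12). Unstimulated arrays lay far above the array medians of 5.69 to 5.71 and stimulated ones near them, where signal over background limits what an array can resolve. The 2 dimmer Abca1 probe sets fell as well, with −3.28 ± 0.22 and −2.30 ± 0.29 in transgenic, and −2.22 ± 0.22 and −1.09 ± 0.29 in wild type cells. Their stimulated means, 3.78 to 4.29, lay below the array medians, so these sizes are not exact.

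Mylip read 7.75, 7.58 and 7.81 in stimulated and 10.64, 10.38 and 10.77 in unstimulated transgenic cells (−2.88 ± 0.10, adjusted p = 1.57e-10). Mylip in wild type cells read 7.75, 7.79 and 7.79 stimulated and 10.41, 10.64 and 10.51 unstimulated (−2.74 ± 0.10, adjusted p = 1.96e-10). Abcg1 moves cholesterol to lipoprotein particles. It read 8.14, 8.08 and 8.11 in stimulated and 9.56, 9.44 and 9.55 in unstimulated transgenic cells (−1.40 ± 0.083, adjusted p = 1.31e-08). Abcg1 in wild type cells read 7.98, 7.88 and 7.99 stimulated and 9.23, 9.29 and 9.52 unstimulated (−1.40 ± 0.083, adjusted p = 1.21e-08). Its dimmer probe set fell more than the brighter one, with −2.72 ± 0.13 in transgenic and −2.90 ± 0.13 in wild type cells. The stimulated means of the dimmer one, 5.53 and 5.49, lay below the array medians, so these sizes are not exact. Nr1h3, the LXR alpha receptor gene, had changes of 0.39 ± 0.076 and 0.35 ± 0.076 after quantile normalization and −0.24 in both genotypes on the deposited values, so its direction rests on the scaling.

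Abca1, Abcg1 and Nr1h3 are also abundant in macrophages, whose markers changed between the states. Of 15 macrophage, monocyte and dendritic cell markers, 14 fell and 1 rose after stimulation of transgenic cells, and 9 fell and 1 rose in wild type cells (14 fell there on the deposited values). Their summed linear level was 1345 to 1928 in stimulated transgenic and 883 to 1031 in stimulated wild type arrays, against 9170 to 12945 in unstimulated transgenic and 4379 to 5728 in unstimulated wild type arrays. B cell markers fell too, 7 of 8 lower and 0 higher in each genotype (8 lower on the deposited values, 5 with array medians subtracted). Their median change was −1.12 in transgenic and −1.33 in wild type cells, against −2.19 and −0.57 for the macrophage list. The B cell sums were 14730 to 15414 (transgenic) and 13569 to 15575 (wild type) stimulated, against 38121 to 38476 and 35279 to 41079 unstimulated. Macrophage markers above the array median numbered 7 of 15 in stimulated and 9 in unstimulated wild type cells, which limits their median change. Granulocyte markers fell too, 10 of 10 in transgenic and 6 in wild type cells, as did 5 and 4 of 6 erythroid markers, and 0 of these rose. T and NK cell markers fell in 6 and 5 of 10 cases, with 0 and 1 higher. In a bulk sample, fewer cells of a type and less RNA per cell cannot be told apart. The part of myeloid RNA in the falls of the exporters was not tested. All 9 measured cycling markers rose in both genotypes (median 3.29 in transgenic and 3.42 in wild type cells), and their part in the rise of the synthesis genes was not tested either.

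Neighbouring pathways were read from lists chosen with earlier results of these data known. Of 14 fatty acid and lipid genes that SREBPs also drive, 9 rose and 1 fell in transgenic, and 9 rose and 2 fell in wild type cells, where 35.2% and 23.3% (transgenic) and 36.0% and 24.0% (wild type) of all genes rose and fell. They were led by Scd2, a fatty acid desaturase (2.78 ± 0.14 in transgenic, 2.63 ± 0.14 in wild type cells), Fads1, another desaturase (2.57 ± 0.090 and 2.67 ± 0.090), and Fasn, fatty acid synthase (1.59 ± 0.080 and 1.83 ± 0.080). Scd1, a desaturase gene that LXR also drives, fell in both, with −0.91 ± 0.077 in transgenic and −1.64 ± 0.077 in wild type cells. In the isoprenoid branch after farnesyl diphosphate 5 of 9 measured genes rose and 2 fell in transgenic cells, and 4 rose and 2 fell in wild type cells, beside the same shares of all genes. Pdss2, of the ubiquinone side chain, rose by 1.65 ± 0.14 and 1.42 ± 0.14, and Fntb, a farnesyltransferase subunit, by 1.12 ± 0.090 and 0.94 ± 0.090.

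Of 23 measured genes of sterol and lipoprotein handling, 8 rose and 12 fell in transgenic cells, and 6 rose and 11 fell in wild type cells, where 35.2% and 23.3% of all genes did so in transgenic and 36.0% and 24.0% in wild type cells. The lipoprotein receptor Lrp8 rose by 2.17 ± 0.15 in transgenic and 2.08 ± 0.15 in wild type cells, and Cyp27a1, a mitochondrial sterol hydroxylase, fell, with −2.49 ± 0.15 and −2.04 ± 0.15. Of 8 measured partners of SREBP processing, 4 rose and 2 fell in transgenic, and 3 rose and 2 fell in wild type cells, near those shares of all genes in wild type cells, with Trim32, a ubiquitin ligase, in front (1.23 ± 0.13 and 1.68 ± 0.13). The split of these lists depends on the scaling. On the deposited values 8 of the 14 lipid genes rose and 4 fell in each genotype, with Thrsp at −0.03 in transgenic cells, against 0.55 after quantile normalization. With array medians subtracted 10 rose in each, and 0 fell in transgenic and 1 in wild type cells. Of the 9 isoprenoid genes 5 rose and 2 fell (transgenic) and 5 rose and 3 fell (wild type) on the deposited values, and 7 rose and 1 fell (transgenic) and 6 rose and 0 fell (wild type) with medians subtracted. On the deposited values 4 of the 23 handling genes rose and 14 fell in transgenic cells, and 3 rose and 16 fell in wild type cells. With array medians subtracted 10 rose and 9 fell in each genotype. Of the SREBP partners 3 rose and 4 fell (transgenic) and 1 rose and 3 fell (wild type) on the deposited values, and 7 rose and 0 fell in each genotype with medians subtracted.

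The genotypes were compared within each state, to ask whether the transgene went with a difference in the sterol programme. In stimulated cells, 4 of 62 probe sets were higher in transgenic cells and 0 lower, against 0.868% and 0.995% of all probe sets: Abca1, Stard4 and 2 of 5 of Hmgcs1. In unstimulated cells, 5 were higher and 1 lower, against 4.47% and 4.98% of all probe sets. The count stood at 2 without wild type stimulated replicate 3 for stimulated cells, and at 3 without transgenic unstimulated replicate 2 and 10 without wild type unstimulated replicate 3 for unstimulated cells. At the brightest probe set 1 of 29 genes passed in each state (2.34% of all genes stimulated, 10.4% unstimulated), Abca1 higher in stimulated and Hsd17b7 lower in unstimulated transgenic cells.

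**Figure D3:**
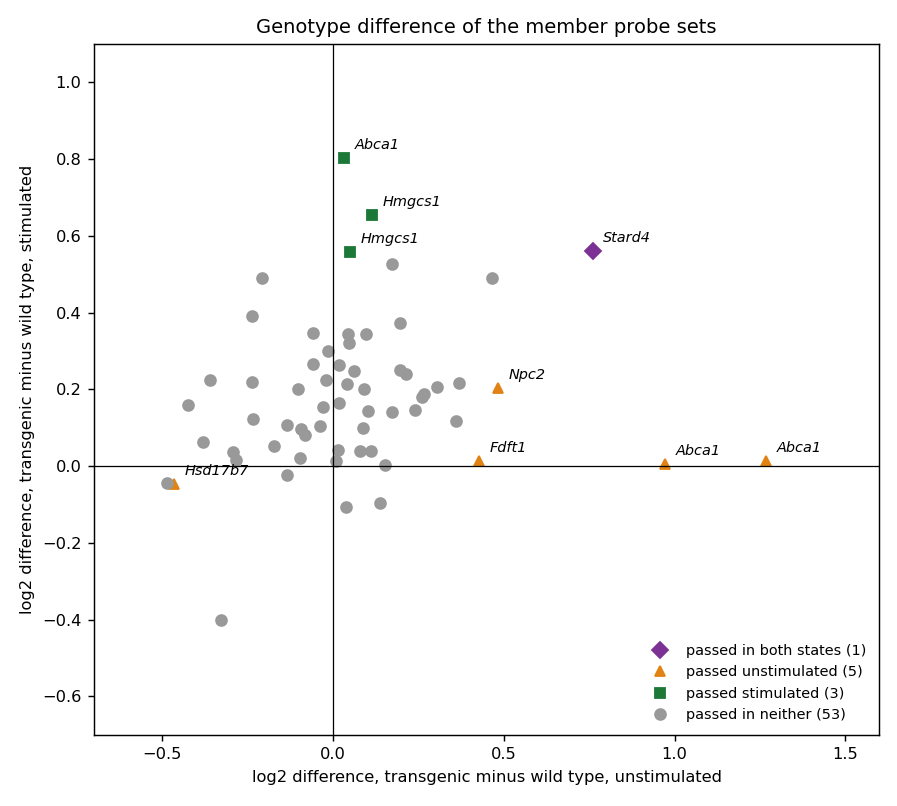
Log2 difference, transgenic minus wild type, of the 62 probe sets in unstimulated cells (horizontal axis) and stimulated cells (vertical axis), on deposited values. Symbols mark the test in which a probe set passed: 1 Stard4 probe set passed in both states, 5 probe sets in unstimulated cells, 3 in stimulated cells and 53 in neither.

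In stimulated cells the mevalonate arm had 12 of 14 probe sets that did not pass, and Hmgcs1 made up the rest. The Hmgcs1 probe set 1433446_at read 9.11, 9.02 and 9.25 in transgenic and 8.73, 8.47 and 8.51 in wild type stimulated cells (0.56 ± 0.098, adjusted p = 0.0096). The dim probe set 1441536_at of Hmgcs1 read 5.66, 5.70 and 5.82 in transgenic and 4.90, 5.14 and 5.18 in wild type stimulated cells (0.65 ± 0.11, adjusted p = 0.00527). Neither pair of groups overlaps, which adds no support, as both probe sets were named for passing. The 3 brighter Hmgcs1 probe sets differed in the same direction and did not pass: 1433443_a_at by 0.49 ± 0.14, 1433445_x_at by 0.35 ± 0.097 and 1433444_at by 0.32 ± 0.10 (adjusted p = 0.126, 0.11 and 0.19). With the replicate number as a block, 1433443_a_at and 1433445_x_at passed too (adjusted p = 0.0294 and 0.0355). The call of 1433446_at was lost without wild type stimulated replicate 2 (0.51, adjusted p = 0.0549) or 3 (0.53, adjusted p = 0.0556). In unstimulated cells the 5 Hmgcs1 probe sets differed by −0.21 to 0.11 and did not pass.

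No sterol arm probe set passed in stimulated cells, where the 24 differed by −0.047 to 0.39 and 8 had an unadjusted p under 0.05. The share of all probe sets under that unadjusted threshold was not counted. The median difference of the 62 probe sets was 0.16 in stimulated cells and 0.038 in unstimulated cells, where all probe sets had medians of 0.0067 in each state. Fdps, with 0.53 ± 0.13 and adjusted p = 0.0763, did not pass, and passed without transgenic stimulated replicate 2 (0.67, adjusted p = 0.0285).

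Stard4 was higher in transgenic cells in both states at 1 of its 3 probe sets. That probe set, 1429239_a_at, read 9.79, 9.61 and 9.67 in transgenic and 9.15, 9.12 and 9.12 in wild type stimulated cells (0.56 ± 0.10, adjusted p = 0.0108). In unstimulated cells it read 7.99, 7.79 and 7.61 in transgenic and 6.95, 7.18 and 6.98 in wild type arrays (0.76 ± 0.10, adjusted p = 0.000445). The genotypes do not overlap in either state, which adds no support, as the probe set was named for passing. The brightest Stard4 probe set differed by 0.49 ± 0.16 stimulated and 0.47 ± 0.16 unstimulated (adjusted p = 0.181 and 0.0842), and 1455011_at by 0.14 ± 0.084 and 0.17 ± 0.084 (adjusted p = 0.626 and 0.231). In the stimulated comparison the call of 1429239_a_at was lost without wild type stimulated replicate 3 (0.555, adjusted p = 0.0504) or transgenic stimulated replicate 1 (0.51, adjusted p = 0.0553).

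Abca1 differed between the genotypes at different probe sets in the 2 states. In stimulated cells the brightest, 1421840_at, read 5.59, 5.96 and 5.47 in transgenic and 4.91, 4.76 and 4.94 in wild type arrays (0.80 ± 0.12, adjusted p = 0.00346). In unstimulated cells the same probe set read 10.93, 11.07 and 10.73 in transgenic and 10.92, 10.90 and 10.81 in wild type arrays (0.033 ± 0.12, adjusted p = 0.904). The stimulated genotypes do not overlap and lie on both sides of the array medians of 5.36 to 5.41, while the unstimulated ones overlap. The probe set was named for passing in stimulated cells, so the lack of overlap there adds no support. The stimulated call held in all 12 alternatives run, with adjusted p of 0.00308 to 0.0237.

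The dimmer Abca1 probe sets passed in unstimulated cells instead. Probe set 1421839_at read 7.79, 8.0 and 7.48 in transgenic and 6.11, 7.15 and 7.09 in wild type arrays (0.97 ± 0.22, adjusted p = 0.0143). Probe set 1450392_at read 6.29, 7.02 and 5.91 in transgenic and 4.53, 5.77 and 5.12 in wild type arrays (1.27 ± 0.29, adjusted p = 0.0166). Wild type replicate 1, the array with the low actin 5′ signal, is the lowest of the 6 in both, and without it the differences were 0.64 (adjusted p = 0.00696) and 0.96 (adjusted p = 0.0506). Without transgenic replicate 2 they were 0.85 (adjusted p = 0.0577) and 0.96 (adjusted p = 0.0591), and with only the 6 unstimulated arrays fitted neither passed (adjusted p = 0.0948 and 0.0926). The wild type values of 1450392_at lay below the unstimulated array medians of 5.97 to 6.05, so the size of its difference is not exact. In stimulated cells these probe sets differed by 0.0067 ± 0.22 and 0.013 ± 0.29 (adjusted p = 0.994 for each). Their stimulated means, 3.61 to 4.06, lay below the array medians of 5.36 to 5.41, where a difference cannot be resolved.

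**Figure D4:**
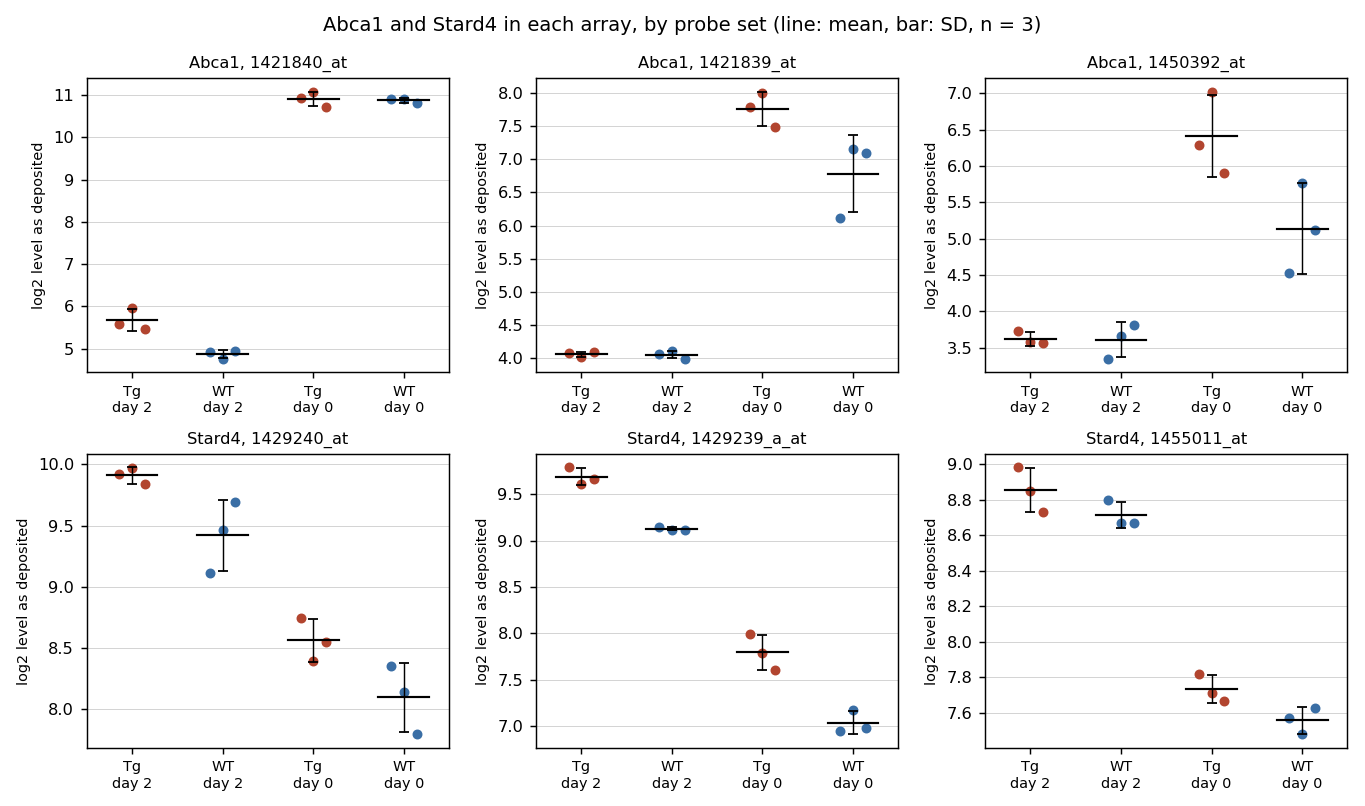
Deposited log2 level in each array at the 3 probe sets of Abca1 (top) and of Stard4 (bottom), in stimulated (day 2) and unstimulated (day 0) transgenic (Tg) and wild type (WT) cells; points are arrays, lines means and bars SD (n = 3). Vertical axes do not start at 0 and differ between panels. The genotype difference passed at 1421840_at of Abca1 in stimulated cells, at its other 2 probe sets in unstimulated cells, and at 1429239_a_at of Stard4 in both states.

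The other calls in unstimulated cells were single probe sets. Npc2 at 1416901_at read 10.45, 10.64 and 10.54 in transgenic and 10.10, 10.09 and 9.99 in wild type arrays (0.48 ± 0.072, adjusted p = 0.00115). The brightest Npc2 probe set differed by 0.30 ± 0.11 and did not pass (adjusted p = 0.0953). Fdft1 at 1438918_at read 6.75, 6.62 and 6.77 in transgenic and 6.24, 6.22 and 6.40 in wild type arrays (0.43 ± 0.076, adjusted p = 0.00385), while the brightest Fdft1 probe set differed by −0.24 ± 0.17 (adjusted p = 0.436). Both genes thus passed at 1 of 4 probe sets. The groups do not overlap there, which adds no support, as these probe sets were named for passing.

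Hsd17b7, a ketosteroid reductase of the sterol arm, had 1 of its 4 probe sets pass as lower in transgenic cells, the 1 such call among the 62 in the fit on deposited values. It read 7.10, 7.02 and 7.03 in transgenic and 7.73, 7.50 and 7.32 in wild type unstimulated arrays (−0.47 ± 0.11, adjusted p = 0.0189). The call was lost without wild type unstimulated replicate 1 (−0.36, adjusted p = 0.0614) and without transgenic unstimulated replicate 2 (−0.45, adjusted p = 0.0582) or 3 (−0.46, adjusted p = 0.0699), and with only the 6 unstimulated arrays fitted (adjusted p = 0.0634). The other Hsd17b7 probe sets differed by −0.097 to 0.27 and did not pass. Insig2 at 1417981_at differed by −0.38 ± 0.11 without passing (adjusted p = 0.0565), and passed as lower under 5 of 12 alternatives, among them quantile normalization (−0.43, adjusted p = 0.027), array medians subtracted (−0.42, adjusted p = 0.0461) and the replicate block (adjusted p = 0.0289).

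Markers of other cells moved with the genotype in the unstimulated groups, where 5 of these 6 calls were rises. Of 15 macrophage, monocyte and dendritic cell markers 14 were higher in transgenic cells and 0 lower, with a summed linear level (deposited values) of 9116 to 13460 in transgenic and 4206 to 5404 in wild type arrays. All 10 granulocyte markers were higher, with sums of 9894 to 14361 in transgenic and 793 to 913 in wild type arrays, and 5 of 6 erythroid markers, with sums of 1427 to 2043 and 429 to 682. T and NK cell markers were higher in 4 of 10 cases, with sums of 1591 to 1795 and 903 to 1188. In stimulated cells 3 of 15 macrophage markers, 3 of 10 granulocyte markers, 1 of 10 T and NK cell markers and 0 of 6 erythroid markers were higher, and none of these was lower. The stimulated macrophage sums were 1158 to 1737 in transgenic and 731 to 864 in wild type arrays. Their part in the differences of Abca1, Npc2 and Stard4 was not tested.

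The neighbouring lists were compared between the genotypes too, where 2.34% of all genes passed in stimulated and 10.4% in unstimulated cells. Of the 14 lipid genes 1 was higher and 1 lower in unstimulated transgenic cells, and of the 8 SREBP partners 1 was lower. Of the 23 handling genes 3 were higher there, and 0 of the 9 isoprenoid genes passed. Whether these counts differ from the share of all genes was not tested. In stimulated cells 0 of the 14 lipid genes, 0 of the 8 SREBP partners, 0 of the 9 isoprenoid genes and 0 of the 23 handling genes passed limma's test. Of these lists 4, 5, 3 and 3 genes had an unadjusted p under 0.05, and the share of all genes at that threshold was not counted. In unstimulated cells Scarb1, a receptor for high density lipoprotein, was higher in transgenic cells by 0.84 ± 0.093 (adjusted p = 0.000121), as were Lrp1 (0.57 ± 0.16, adjusted p = 0.0422), Lpcat3 (0.55 ± 0.11, adjusted p = 0.00882) and Fads1 (0.43 ± 0.10, adjusted p = 0.0209). Scd1 (−0.44 ± 0.083, adjusted p = 0.00563) and Mbtps2 (−0.49 ± 0.14, adjusted p = 0.0425), a protease that cleaves SREBPs, were lower.

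Whether stimulation changed a transcript by a different amount in the genotypes was tested as an interaction on the deposited values. An unadjusted p under 0.05 was found at 17 of the 62 probe sets. The share of all probe sets at that threshold was not counted, so whether this number is above that share is not known. After adjustment the interaction passed for 1 of 62 probe sets, 1421840_at of Abca1, against 1.58% of all probe sets. At that probe set Abca1 fell less in transgenic cells, by 0.77 ± 0.17 (adjusted p = 0.0454). The stimulated wild type values behind it, 4.91, 4.76 and 4.94, lie below the array medians of 5.36 to 5.41 and are not shown to be above background. The call was lost when any of 9 of the 12 arrays was left out (adjusted p of 0.0662 to 0.127), and held without wild type unstimulated replicate 3, transgenic unstimulated replicate 2 or transgenic stimulated replicate 3. Without wild type unstimulated replicate 3, 5 of the 62 passed. The other Abca1 probe sets gave −0.97 ± 0.31 and −1.25 ± 0.41, in the opposite direction, and did not pass (adjusted p = 0.17 and 0.187). Their stimulated means lay below the array medians in both genotypes (4.06 and 4.05 at 1421839_at, 3.62 and 3.61 at 1450392_at). Their interaction thus restates the unstimulated genotype difference with its sign reversed.

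The synthesis genes rose by amounts that the test did not tell apart between the genotypes. An unadjusted p under 0.05 was found at 5 of 14 probe sets in the mevalonate and 5 of 24 in the sterol arm. The share of all probe sets at that threshold was not counted. Over the 38 probe sets of both arms the interaction ran from −0.41 to 0.70, and 0 passed limma's test. The largest was that of Hmgcs1 at its brightest probe set (0.70 ± 0.20, adjusted p = 0.125), followed by Fdft1 (0.63 ± 0.24, adjusted p = 0.265). The Hmgcs1 probe set passed without wild type unstimulated replicate 3 (0.83, adjusted p = 0.0369) and with the replicate number as a block (adjusted p = 0.0344). A p above the threshold does not show that the responses were equal. Among the neighbouring lists the interaction passed for Scarb1 (−1.15 ± 0.13, adjusted p = 0.000836), which rose by 0.61 ± 0.096 in transgenic and 1.78 ± 0.096 in wild type cells, and for Scd1 (0.78 ± 0.12, adjusted p = 0.00544).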

How the data were processed

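Affymetrix probe set levels were measured in 12 samples. The deposited values are log2 levels made by the authors with RMA (package affy), per the submitters' processing notes; versions are not given in the sources used here. Whether all 12 arrays were normalized together is not given either. Array controls (64 probe sets) were left out. Probe sets were named from the platform annotation, and 34945 of 45037 had 1 gene symbol, 932 several and 9160 none; only probe sets with 1 symbol were named.

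From these values limma 3.58.1 (R 4.3.3) was fitted to all 12 arrays with 1 coefficient per group and 5 contrasts, 2-sided, with Benjamini-Hochberg adjustment over all probe sets. Genotype contrasts and the interaction used the deposited values, and stimulation contrasts used quantile-normalized values. Linear sums of markers were taken as 2 to the power of the log2 level. The fit was tested on simulated data. Arrays give no read depth; their number limits the precision. That an array is a separate mouse is not stated, so p-values measure the spread between these arrays.

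Members and lists were chosen with earlier results of these data known. Every array's value is given for members that passed between genotypes or in the interaction, and for the 8 members of each direction with the largest wild type stimulation change that passed; of the neighbouring lists, up to 4 genes per list and comparison, and Scd1 and Scarb1 also where their interaction passed.

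The groups share replicate numbers 1 to 3. Same-numbered arrays deviated together between the genotypes when stimulated (r of 0.33, 0.10 and 0.18) and between the states of wild type cells (0.33, 0.18 and 0.22), each over the minimum of 0.1, and not between the unstimulated genotypes (0.078, 0.070 and 0.30) or the states of transgenic cells (0.066, −0.16 and 0.12). Alternatives were other scalings, a replicate block, only probe sets above the median mean level, limma-trend, only the 6 arrays compared, each array left out, and any probe set per gene.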

Additional observations from a re-analysis of the deposited data

Results flagged for a closer look

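The change of Abca1 under stimulation differed between the genotypes at probe set 1421840_at by 0.77 (transgenic minus wild type, deposited values, limma interaction, adjusted p = 0.0454). The probe set fell in both genotypes, and stimulated transgenic arrays read 5.59, 5.96 and 5.47 where stimulated wild type arrays read 4.91, 4.76 and 4.94, below the array medians of 5.36 to 5.41. Over the alternatives run the difference was 0.63 to 0.87 with adjusted p of 0.0328 to 0.127. The other Abca1 probe sets gave −0.97 and −1.25 and did not pass (adjusted p = 0.17 and 0.187). Their stimulated means, 3.61 to 4.06, lay below those array medians in both genotypes.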

How the results depend on the processing

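With each array left out in turn, the number of member probe sets that passed was 3 to 10 between unstimulated genotypes (3 to 6 higher, 0 to 4 lower), 2 to 5 between stimulated genotypes (2 to 5 higher, 0 lower), 50 to 54 for stimulation of transgenic cells (41 to 45 higher, 9 lower), 49 to 53 for wild type cells (40 to 44 higher, 9 lower) and 0 to 5 for the interaction (0 to 4 higher, 0 to 1 lower). The interaction count was 5 without wild type unstimulated replicate 3. Between unstimulated genotypes, fitting only the 6 arrays compared left 3 calls, 3 higher and 0 lower. The 1 lower call became 2 after quantile normalization, 4 with array medians subtracted, 2 with the replicate block and 2 among probe sets above the median mean level. With a gene counted at any of its probe sets, 5 genes passed unstimulated and 3 stimulated, against 1 each at the brightest; by the same counting 15.4% and 3.39% of all genes passed. On deposited values 16 member probe sets fell under stimulation in each genotype, against 9 after quantile normalization. On those values Fdft1 at 1438918_at turned to −0.54 in transgenic and −0.12 in wild type cells, and Nr1h3 to −0.24 in both; Srebf2 at 1452174_at turned to 0.41 in wild type cells with array medians subtracted. Beyond the scale shift itself, the cause was not tested. With the replicate number as a block the calls were 6 between stimulated genotypes, 9 between unstimulated genotypes, 52 for stimulation of transgenic cells, 53 for wild type cells, and 2 (both higher) for the interaction. Near or below the array median, as for Abca1 in stimulated cells, signal over background limits what a difference can show.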

Other observations

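The probe sets of several members gave different sizes of change on the same arrays. Under stimulation the less bright Idi1 probe set rose by 5.62 in transgenic and 5.23 in wild type cells, against 3.89 and 3.97 at the brightest. The unstimulated levels of the less bright one lay below the array medians, so its sizes are not exact. Sc5d, the lathosterol oxidase, rose by 2.02 and 1.87 at 1434520_at, from unstimulated means of 5.07 and 5.23. Those means lay below the array medians, so these sizes are not exact. At 1424709_at Sc5d read 0.33 (adjusted p = 0.0084) in transgenic and 0.048 (adjusted p = 0.684) in wild type cells. On the deposited values 1424709_at turned to −0.23 (adjusted p = 0.0356) and −0.53 (adjusted p = 0.000159). For Lss, 1420014_at read 0.14 in transgenic and −0.039 in wild type cells and did not pass (adjusted p = 0.29 and 0.786), and on the deposited values it passed as lower in both (−0.48, adjusted p = 0.00126 and −0.64, adjusted p = 0.000125).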
